A study of Homo sapiens with 36 samples.

Results

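The J-domain co-chaperones, the proteins that recruit and activate HSP70, were followed as a set of 38 genes among the 57500 gene IDs of the count tables. Their symbols were listed, and each symbol was mapped to 1 Ensembl gene ID. The rule itself uses no measured value, although the list was drawn up with earlier results of these data known. The set holds 4 genes of class A (DNAJA), 9 of class B (DNAJB) and 25 of class C (DNAJC). RNA came from THP-1, a human monocytic leukaemia line, in 3 lentivirally transduced forms that carried a non-target short hairpin RNA (shNT) or one against the nuclear receptor NR4A2 (shNR4A2) or NR4A3 (shNR4A3). Every form was kept for 4 h in buffered medium at 5% CO2, or at 10% CO2 as buffered hypercapnia. Cells were either left unstimulated (basal) or given bacterial lipopolysaccharide (LPS) at 2.5 µg/ml for the last 2 h. All 12 conditions had 3 replicate libraries, and all, controls included, therefore carried a hairpin and stayed in buffered medium. The study describes the replicates as individual experiments, but whether a replicate number marks the same experiment in every condition, and whether the transduced cells are clones or pools, is not given in the sources used here. In bulk RNA, fewer cells and less RNA per cell cannot be told apart.

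HSP70 chaperones bind and release stretches of unfolded protein in a cycle driven by ATP, and J-domain proteins deliver the client and trigger ATP hydrolysis. Class A proteins carry the J-domain, a glycine- and phenylalanine-rich stretch and a zinc-finger region, class B proteins lack the zinc finger, and class C proteins share little with the others beyond the J-domain itself. Class C members are mostly tied to a place or a task, such as the endoplasmic reticulum (ER), the mitochondrial import motor, the spliceosome or synaptic and endocytic vesicles. Several cytosolic members of classes A and B are known targets of heat shock factor 1, and several ER members are known targets of the unfolded protein response.

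Libraries held 16171161 to 23929138 counts (median 19639071). The monocyte genes checked were present in all 36 libraries, SPI1 at 467 to 1132 TPM (transcript abundance, counts scaled for gene length and then to a common library total) and CD14 at 7.47 to 66.7 TPM. Among markers of other cell types, 10 stayed at or below 1.59 TPM, with CD3E, MS4A1, GATA1, EPCAM and CDH5 at or near 0. PECAM1, which monocytes also express, stood at 74.0 to 289 TPM. The targeted genes followed the labels except at 1 point. NR4A2 was at 14.8 to 28.3 TPM in LPS-stimulated shNR4A2 cells at 5% CO2 against 51.3 to 74.7 TPM in shNT cells, and lay below shNT without overlap in the other 3 conditions too. NR4A3 in shNR4A3 cells lay below shNT without overlap in 3 conditions, but the ranges overlapped in basal cells at 10% CO2 (0.185 to 0.232 against 0.176 to 0.374 TPM).

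On the per-length TPM scale, DNAJA1 had the highest mean of the J-domain transcripts. This cytosolic partner of HSPA8 averaged 545 TPM (219.6 to 1008) over the 36 libraries and made up 26.5% of the summed J-domain TPM. The splicing-associated DNAJC8 followed at 226 TPM (189.6 to 267), the vesicle protein DNAJC5 (cysteine string protein) at 184 TPM (86.6 to 279), and the ER membrane protein DNAJC1 at 155 TPM (132 to 174). DNAJB1, the heat-inducible HSP40, stood at 112 TPM (74.3 to 248). The ranges of DNAJC8 and DNAJC5 overlapped, as did those of DNAJC5 and DNAJC1 and of DNAJC1 and DNAJB1, so the order of neighbours there was within the spread across conditions. The lowest DNAJA1 values overlapped with these ranges too. DNAJA1 stood at 219.6 TPM, below DNAJC5 at 256 TPM and DNAJC8 at 226 TPM, in replicate 2 of basal shNR4A2 cells at 5% CO2, and at 274 TPM, just below DNAJC5 at 276 TPM, in replicate 2 of basal shNR4A3 cells at 5% CO2. Of the other members, DNAJA2 averaged 74.6 TPM, DNAJB6 37.4 TPM, DNAJA4 26.6 TPM and DNAJB4 10.8 TPM. The gene length used for TPM counts all annotated exon bases, 14981 for DNAJB6, 3672 for DNAJB1 and 2730 for DNAJA1. The order of genes and their shares therefore depend on these lengths as well as on the reads. At the low end stood the vesicle-uncoating auxilin DNAJC6 (1.35 TPM (0.611 to 2.33)), DNAJB5 (1.22 TPM (0.742 to 2.11)) and DNAJC28 (0.732 TPM (0.0700 to 1.99)). DNAJC12, a co-chaperone of the aromatic amino acid hydroxylases, was listed at 0 to 0.470 TPM and was the only member that did not pass the filter on low counts, which left 37 members among the 17720 genes tested.

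**Figure D1:**
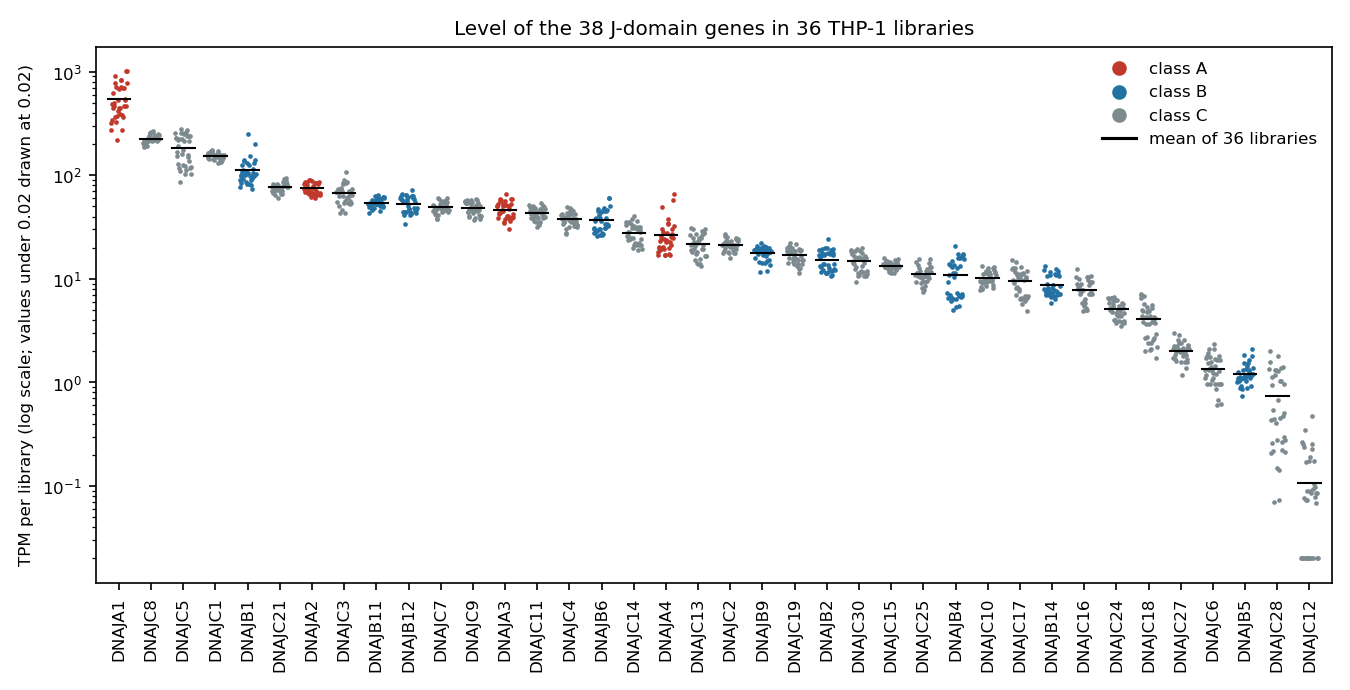
Level of the 38 J-domain genes in TPM (log axis), ordered by their mean, with 1 point for each of the 36 libraries, a line for their mean and 1 colour for each class. Values at 0 are drawn at the bottom of the scale. DNAJA1 lies highest, with a mean over libraries of 545 TPM, and DNAJC12 lowest, at 0.108 TPM.

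The share of class A in the summed J-domain TPM was higher at 10% CO2 and higher again with LPS. In shNT cells it was 24.7% ± 0.973 (SD, n = 3) at 5% CO2 and 30.7% ± 2.87 at 10% CO2, and with LPS it was 33.0% ± 3.07 and 42.7% ± 3.42. In shNR4A2 cells the corresponding shares were 24.0% ± 3.47, 29.1% ± 0.864, 32.9% ± 4.85 and 41.5% ± 1.07. For shNR4A3 cells they came to 25.1% ± 2.76, 32.4% ± 1.86, 36.5% ± 4.15 and 44.9% ± 2.58. The 3 libraries at 10% CO2 lay above the 3 at 5% CO2 in each of the 6 pairs of conditions. Class B held a near-level share, between 14.2% and 16.1% in the condition means, although replicate 2 of basal shNR4A2 cells at 10% CO2 reached 20.2% against 14.3% and 13.6% in the other two. The class C share was lower, from 60.2% ± 1.26 in basal shNT cells at 5% CO2 to 42.9% ± 3.29 in LPS-stimulated shNT cells at 10% CO2. DNAJA1 carried most of this. With DNAJA1 left out of the sums, class A made up 8.33% to 10.7% in the condition means, and the 10% and 5% CO2 libraries still lay apart in the 3 LPS-stimulated pairs and in basal shNR4A3 cells but overlapped in basal shNT and basal shNR4A2 cells. These shares were not tested, and their size depends on the gene lengths used for TPM.

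**Figure D2:**
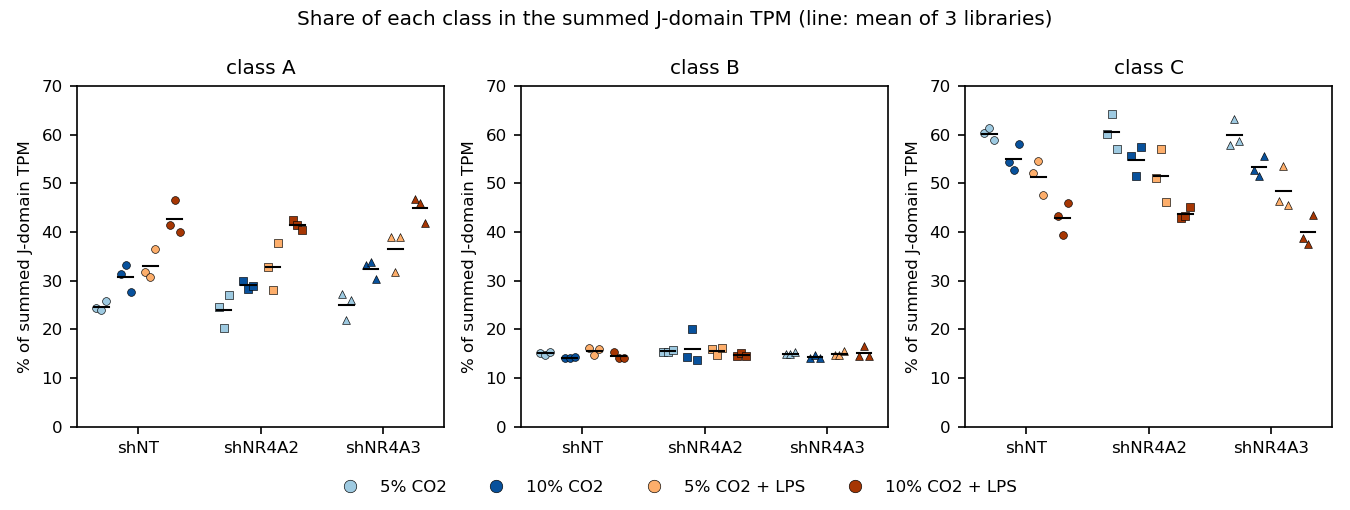
Share of the summed J-domain TPM held by classes A, B and C (percent, axis from 0) in the 12 conditions, with points for the 3 libraries and a line for their mean. Class A ranges from 24.0% to 44.9% in the condition means and lies higher at 10% CO2 in each pair, while the class B means stay between 14.2% and 16.1%.

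The comparison of 10% with 5% CO2 asked which co-chaperones follow buffered hypercapnia. The cytosolic members DNAJA1 and DNAJA4 were higher and the ER-membrane member DNAJB12 was lower at 10% CO2 in every line and state. Most of the other members passed the test in no single comparison, although more did so when the 6 were averaged. For DNAJA1, DNAJA4 and DNAJB12 the 3 libraries at 10% CO2 lay apart from the 3 at 5% CO2 in all 6 comparisons. These use separate libraries, but same-numbered libraries of 1 CO2 level tended to deviate together across lines and states. The 6 comparisons are therefore not independent observations. Values for 1 gene across libraries are given from here on as normalized CPM (counts scaled to a common library total, with library sizes adjusted by the trimmed mean of M-values, TMM). Tests are edgeR quasi-likelihood F tests within 1 pair of conditions, and members are called at an adjusted p under 0.05 over the 17720 genes.

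In basal shNT cells 1 of 37 members was called between 10% and 5% CO2, beside 0.615% of all genes tested, and in LPS-stimulated shNT cells 5 were called, beside 8.19% of all genes. In shNR4A2 cells the counts were 0 in the basal state (edgeR, background 0.0113%, 4 members at an unadjusted p under 0.05, and 0 called by DESeq2) and 1 with LPS (background 0.198%). For shNR4A3 cells they were 3 in the basal state (background 1.13%) and 1 with LPS (background 2.13%). The replicate numbers paired the libraries of basal shNR4A2 cells, and with the replicate as a block 1 member, DNAJB12, was called there as lower, beside 2.04% of all genes. These counts moved with single libraries. The share of all genes called in the fits without 1 library is not given, so how far a count moved with all genes cannot be read. In basal shNT cells the count was 0 without replicate 1, 2 or 3 at 5% CO2 or replicate 2 at 10% CO2, it was 3 without replicate 1 at 10% CO2 and 4 without replicate 3 at 10% CO2. In LPS-stimulated shNT cells it was 1 without replicate 1 at 5% CO2 or replicate 2 at 10% CO2, it was 2 without replicate 2 at 5% CO2 or replicate 3 at 10% CO2 and 8 without replicate 3 at 5% CO2. In LPS-stimulated shNR4A2 cells it was 0 without replicate 1 at 5% CO2 or replicate 1, 2 or 3 at 10% CO2 and 4 without replicate 3 at 5% CO2. In basal shNR4A3 cells it was 0 without replicate 2 at 5% CO2 or replicate 1 or 2 at 10% CO2 and 1 without replicate 3 at 5% CO2 or replicate 3 at 10% CO2. In LPS-stimulated shNR4A3 cells it was 0 without replicate 1 or 3 at 5% CO2 or replicate 1 or 2 at 10% CO2.

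Read across the comparisons, the members leaned upward. The log2 fold change had the same sign in all 6 CO2 comparisons for 11 members on the higher side (29.7%, against 16.5% of all genes) and for 4 on the lower side (10.8%, against 17.3%). Those higher throughout were DNAJA1, DNAJA3, DNAJA4, DNAJB1, DNAJB2, DNAJB11, DNAJC2, DNAJC6, DNAJC10, DNAJC15 and DNAJC19, and those lower throughout were DNAJB12, DNAJC5, DNAJC9 and DNAJC18. The libraries lay apart in at least 5 of the 6 comparisons for 3 members on the higher side (DNAJA1, DNAJA3 and DNAJA4, 8.11% against 2.08% of all genes) and for 2 on the lower side (DNAJB12 and DNAJC9, 5.41% against 1.9%). A test of the CO2 difference averaged over the 6 states, in 1 fit to all 36 libraries and chosen after the values had been seen, called 13 members higher (35.1%) beside 17% of all genes and 4 lower (10.8%) beside 19.4%. This fit counted all libraries as independent, but same-numbered libraries within 1 CO2 level deviated together in most pairs of conditions. The SE and p of averaged CO2 differences may therefore be too small, and leaving out 1 library cannot show this. By class, 3 of the 4 class A members were called, all higher, with a class median log2 fold change of 0.43. Class B had 4 of 9 called higher and 1 lower, with a median of 0.072. In class C 6 of the 24 tested were called higher and 3 lower, with a median of 0.011, near the -0.0042 of all genes. The classes differ in size and were compared only by these counts and medians.

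**Figure D3:**
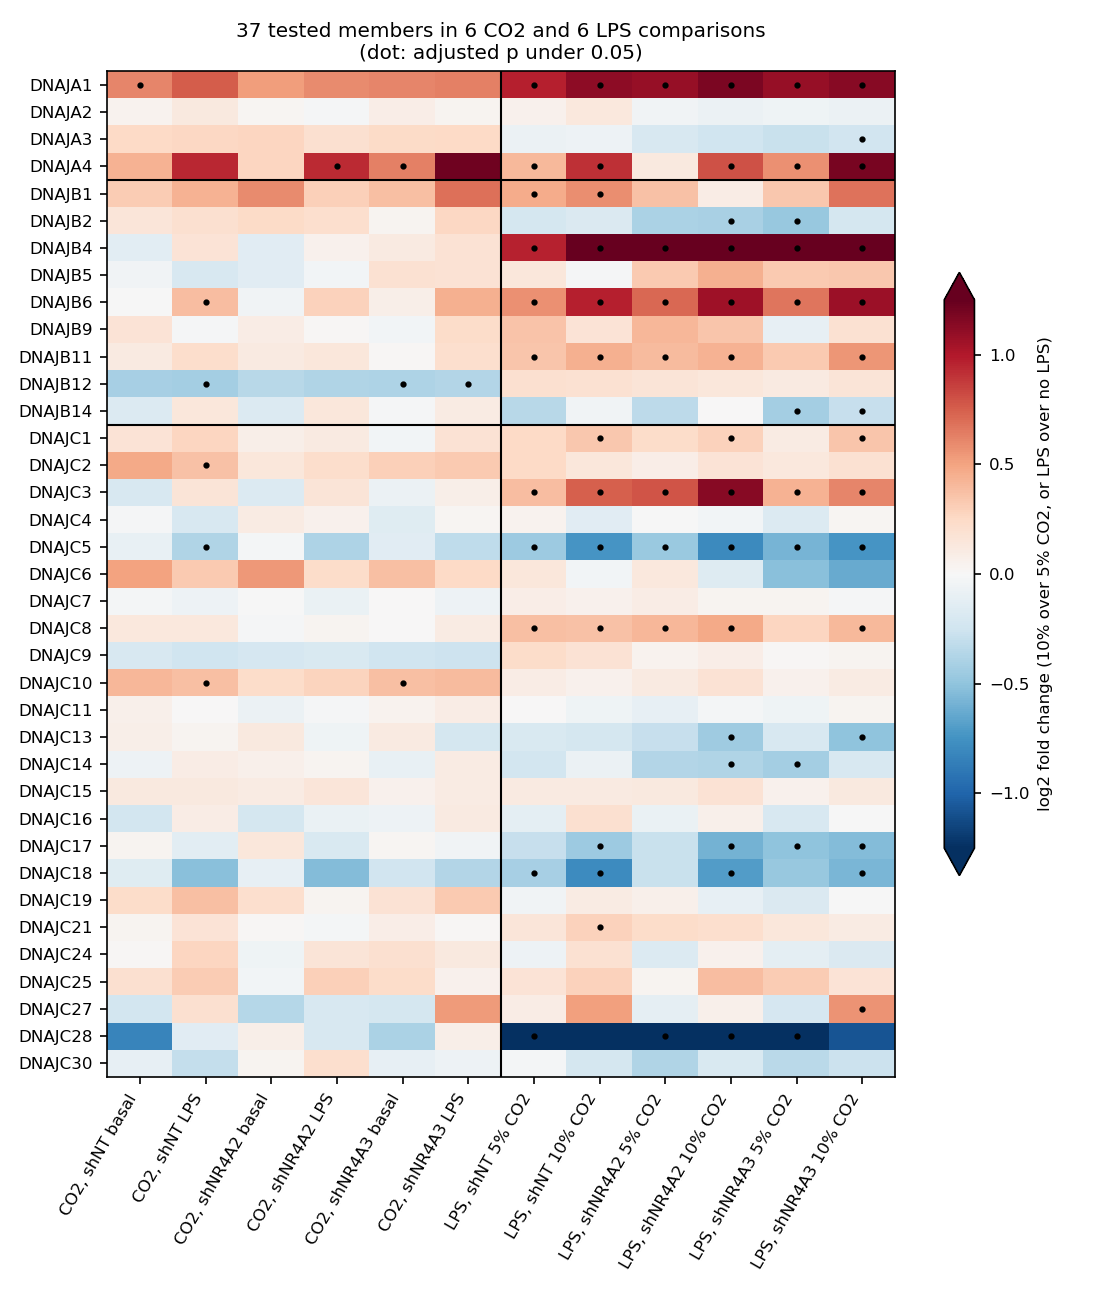
Log2 fold change of the 37 tested members in the 6 CO2 comparisons (left, 10% over 5% CO2) and the 6 LPS comparisons (right, LPS over no LPS), with lines between classes A, B and C. Red is higher and blue lower, the deepest colours hold all values beyond the scale, and a dot marks an adjusted p under 0.05 (edgeR). The CO2 columns hold 11 dots and the LPS columns 73.

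DNAJA1, the most abundant member, was higher at 10% CO2 in every library of every pair of conditions. In basal shNT cells DNAJA1 read 222, 195 and 226 normalized CPM at 5% CO2 and 346, 374 and 262 at 10% CO2. LPS-stimulated shNT cells gave 393, 349.5 and 512 normalized CPM of DNAJA1 at 5% CO2 and 682, 852 and 584 at 10% CO2. In basal shNR4A2 cells DNAJA1 read 229.7, 155 and 251 normalized CPM at 5% CO2 and 331, 302 and 280.4 at 10% CO2. The lowest library at 10% CO2 stood above the highest at 5% CO2 in each of these. LPS-stimulated shNR4A2 cells gave 460.1, 321 and 577 normalized CPM of DNAJA1 at 5% CO2 and 762, 692 and 597 at 10% CO2. In basal shNR4A3 cells DNAJA1 read 283, 189 and 263 normalized CPM at 5% CO2 and 401, 393 and 317 at 10% CO2. LPS-stimulated shNR4A3 cells gave 608, 368 and 585 normalized CPM of DNAJA1 at 5% CO2 and 889, 845 and 674 at 10% CO2. The groups stayed apart in the remaining pairs as well, although libraries of 1 condition differed widely. The study, which used DESeq2, lists DNAJA1 among the chaperones that were CO2-sensitive with LPS in all 3 lines. The edgeR calls that follow come from another test, so a call not made here does not contradict that list. Here the log2 fold changes ran from 0.53 to 0.76 over the 6 comparisons, and 1 passed the edgeR test, in basal shNT cells, at 0.61 ± 0.12 (SE, adjusted p = 0.0366, edgeR). That call was lost without replicate 1, 2 or 3 at 5% CO2 or replicate 2 at 10% CO2, with adjusted p up to 0.333 (edgeR), and it was not made when all 36 libraries were fitted together. Averaged over the 6 states the difference was 0.62 ± 0.089 (SE, adjusted p = 4.89e-06, edgeR), kept in all 36 fits that left out 1 library. In every line and state replicate 2 was lowest at 5% CO2 and replicate 3 lowest at 10% CO2. The averaged fit did not allow for this.

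DNAJA4, a less abundant class A member of the cytosol, was likewise higher at 10% CO2 in all 6 pairs. In basal shNT cells DNAJA4 read 30.8, 29.6 and 31.5 normalized CPM at 5% CO2 and 42.8, 46.2 and 34.6 at 10% CO2. LPS-stimulated shNT cells gave 39.7, 35.3 and 45.9 normalized CPM of DNAJA4 at 5% CO2 and 65.0, 109.8 and 56.8 at 10% CO2. In basal shNR4A2 cells DNAJA4 read 33.8, 33.0 and 39.3 normalized CPM at 5% CO2 and 41.5, 46.0 and 40.3 at 10% CO2. No library at 10% CO2 fell to the level of any at 5% CO2 in these pairs. LPS-stimulated shNR4A2 cells gave 35.6, 32.1 and 48.2 normalized CPM of DNAJA4 at 5% CO2 and 75.3, 75.3 and 70.5 at 10% CO2. In basal shNR4A3 cells DNAJA4 read 35.7, 28.9 and 29.8 normalized CPM at 5% CO2 and 50.0, 53.5 and 41.2 at 10% CO2. LPS-stimulated shNR4A3 cells gave 48.3, 40.4 and 51.1 normalized CPM of DNAJA4 at 5% CO2 and 124, 133 and 67.5 at 10% CO2. With LPS the libraries at 10% CO2 spread widely in shNT and shNR4A3 cells and closely in shNR4A2 cells. Fold changes ran from 0.27 to 1.22 on the log2 scale. Called were LPS-stimulated shNR4A2 cells, at 0.93 ± 0.14 (SE, adjusted p = 0.0281, edgeR), and basal shNR4A3 cells, at 0.63 ± 0.11 (SE, adjusted p = 0.0189, edgeR). The call in LPS-stimulated shNR4A2 cells was lost without replicate 1 at 5% CO2 or replicate 1, 2 or 3 at 10% CO2, with adjusted p up to 0.187 (edgeR). The call in basal shNR4A3 cells was lost without replicate 2 or 3 at 5% CO2 or replicate 1 or 2 at 10% CO2, with adjusted p up to 0.175 (edgeR), and was not made in 1 fit to all 36 libraries. The averaged difference was 0.73 ± 0.084 (SE, adjusted p = 1.39e-07, edgeR), kept in all 36 fits that left out 1 library. The other cytosolic class A member, DNAJA2, stayed at -0.011 to 0.12 in its 6 log2 fold changes and was called in none.

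DNAJB1, the classical heat-inducible HSP40, lay higher at 10% CO2 on average but was uneven between replicates. In basal shNR4A2 cells it read 93.3, 82.2 and 99.8 normalized CPM at 5% CO2 and 106, 229 and 78.4 at 10% CO2, where replicate 2 stood far above the other two. Basal shNT cells gave 84.3, 75.1 and 87.5 and 106, 112 and 88.4, and LPS-stimulated shNT cells gave 109, 88.7 and 141 and 163, 176 and 119 normalized CPM at 5% and 10% CO2. The groups lay apart in basal shNT cells and overlapped in the other 2 of these comparisons. The 6 log2 fold changes ran from 0.29 to 0.68 and none was called. That of basal shNR4A2 cells, at 0.59, fell to 0.0098 without replicate 2 at 10% CO2. The average over the 6 states was 0.44 ± 0.12 (SE, adjusted p = 0.00521, edgeR), and 0.35 with an adjusted p of 0.00704 (edgeR) without replicate 2 of basal shNR4A2 cells at 10% CO2.

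DNAJB6, which keeps aggregation-prone proteins soluble, was called in 1 CO2 comparison, that of LPS-stimulated shNT cells. In LPS-stimulated shNT cells DNAJB6 read 167, 156 and 178 normalized CPM at 5% CO2 and 221, 243 and 189 at 10% CO2, a log2 fold change of 0.39 ± 0.091 (SE, adjusted p = 0.0234, edgeR). In the basal state the same line gave 119.7, 109.9 and 109 and 115, 117 and 104, with a log2 fold change of -0.0068 ± 0.10. The groups were apart with LPS and overlapped without it. The call in LPS-stimulated shNT cells was lost without replicate 1 or 2 at 5% CO2 or replicate 1 or 2 at 10% CO2, with adjusted p up to 0.11 (edgeR). In the annotation 8 pseudogenes carry the DNAJB6 name and sum to at most 11.2 TPM in a library, so a share of its reads may be assigned elsewhere.

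DNAJB12 sits in the ER membrane and works with cytosolic HSP70 in ER-associated degradation. It was lower at 10% CO2 in all 6 pairs. In basal shNT cells DNAJB12 read 88.0, 86.9 and 86.8 normalized CPM at 5% CO2 and 66.4, 64.1 and 65.5 at 10% CO2. LPS-stimulated shNT cells gave 109.5, 92.9 and 95.7 normalized CPM of DNAJB12 at 5% CO2 and 80.7, 65.2 and 76.0 at 10% CO2. In basal shNR4A2 cells DNAJB12 read 92.2, 93.4 and 77.8 normalized CPM at 5% CO2 and 73.7, 67.7 and 65.7 at 10% CO2. In these pairs the highest library at 10% CO2 stayed below the lowest at 5% CO2. LPS-stimulated shNR4A2 cells gave 107, 98.7 and 88.8 normalized CPM of DNAJB12 at 5% CO2 and 78.7, 72.5 and 76.0 at 10% CO2. In basal shNR4A3 cells DNAJB12 read 95.9, 103 and 94.4 normalized CPM at 5% CO2 and 75.3, 68.5 and 78.5 at 10% CO2. LPS-stimulated shNR4A3 cells gave 110.1, 103 and 104 normalized CPM of DNAJB12 at 5% CO2 and 78.4, 80.3 and 86.1 at 10% CO2. The same separation held in the other 3 pairs. Log2 fold changes ran from -0.42 to -0.34, a narrow range, and 3 were called: -0.42 ± 0.093 (SE, adjusted p = 0.0178, edgeR) in LPS-stimulated shNT cells, -0.39 ± 0.08 (SE, adjusted p = 0.0304, edgeR) in basal shNR4A3 cells and -0.37 ± 0.078 (SE, adjusted p = 0.0377, edgeR) in LPS-stimulated shNR4A3 cells. In LPS-stimulated shNT cells the call was lost without replicate 1 at 5% CO2 or replicate 2 or 3 at 10% CO2, with adjusted p up to 0.0852 (edgeR). In basal shNR4A3 cells it was lost without replicate 2 at 5% CO2 or replicate 1, 2 or 3 at 10% CO2, with adjusted p up to 0.266 (edgeR). With LPS in shNR4A3 cells it was lost without replicate 1 or 3 at 5% CO2 or replicate 1, 2 or 3 at 10% CO2, with adjusted p up to 0.19 (edgeR). The averaged difference was -0.39 ± 0.035 (SE, adjusted p = 4.15e-10, edgeR), kept in all 36 fits that left out 1 library.

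DNAJC10, the ER-lumen disulfide reductase that partners HSPA5, was higher at 10% CO2. With LPS, shNT cells gave 54.0, 50.1 and 52.6 normalized CPM at 5% CO2 and 69.4, 70.2 and 63.5 at 10% CO2, and the log2 fold change was 0.38 ± 0.079 (SE, adjusted p = 0.0143, edgeR). Basal shNR4A3 cells gave 59.1, 53.2 and 58.0 and 76.1, 75.3 and 67.4, a log2 fold change of 0.37 ± 0.084 (SE, adjusted p = 0.046, edgeR). In both comparisons all 3 libraries at 10% CO2 were the higher ones. The first call was lost without replicate 2 at 5% CO2 or replicate 2 at 10% CO2, with adjusted p up to 0.0706 (edgeR). The second was lost without replicate 2 or 3 at 5% CO2 or replicate 1, 2 or 3 at 10% CO2, with adjusted p up to 0.293 (edgeR), and was not made in 1 fit to all 36 libraries. All 6 fold changes were positive, at 0.23 to 0.42, and the average was 0.34 ± 0.048 (SE, adjusted p = 1.21e-06, edgeR). The other ER members did not move as one. The averaged log2 fold change was -0.014 ± 0.054 for DNAJC3, an HSPA5 co-chaperone that inhibits the kinase PERK, 0.072 ± 0.077 for DNAJB9, which holds IRE1 inactive, and 0.13 ± 0.043 for DNAJB11, and of these DNAJB11 alone was called (adjusted p = 0.0161, edgeR). DNAJC18, another ER-membrane member, was lower on average, at -0.33 ± 0.078 (SE, adjusted p = 0.00124, edgeR).

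Of the 5 members tied to the ribosome, splicing or chromatin and the 4 tied to vesicles and endosomes, DNAJC2 and DNAJC5 alone were called, both in LPS-stimulated shNT cells. DNAJC2, which binds the ribosome and helps fold nascent chains, read 36.1, 41.5 and 39.8 normalized CPM at 5% CO2 and 48.9, 51.7 and 50.3 at 10% CO2, with a log2 fold change of 0.37 ± 0.085 (SE, adjusted p = 0.0218, edgeR). DNAJC5, the cysteine string protein of secretory vesicles, read 259, 232 and 206 at 5% CO2 and 201, 156 and 178 at 10% CO2, with a log2 fold change of -0.38 ± 0.10 (SE, adjusted p = 0.042, edgeR). DNAJC2 was thus higher and DNAJC5 lower in all 3 libraries at 10% CO2. The DNAJC2 call was lost without replicate 1 at 5% CO2 or replicate 2 or 3 at 10% CO2, with adjusted p up to 0.0926 (edgeR). The DNAJC5 call was lost without replicate 1 or 2 at 5% CO2 or replicate 2 or 3 at 10% CO2, with adjusted p up to 0.152 (edgeR). On average over the 6 states DNAJC2 rose by 0.30 ± 0.042 (SE, adjusted p = 1.25e-06, edgeR) on the log2 scale, and the DNAJC5 difference was -0.23 ± 0.048 (SE, adjusted p = 0.000268, edgeR).

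Another 2 members, picked after their values were seen, were called in no single comparison but lay apart in 5 of 6. DNAJA3, the mitochondrial class A protein, read 92.1, 93.0 and 90.6 normalized CPM in basal shNT cells at 5% CO2 and 107, 114 and 107 at 10% CO2. Its averaged log2 fold change was 0.24 ± 0.034 (SE, adjusted p = 1.04e-06, edgeR). DNAJC9, a histone chaperone that works at replicating chromatin, read 55.8, 59.0 and 51.2 at 5% CO2 and 47.2, 48.0 and 49.1 at 10% CO2 in the same cells. Its averaged log2 fold change was -0.23 ± 0.033 (SE, adjusted p = 1.43e-06, edgeR). DNAJA3 was thus the higher and DNAJC9 the lower at 10% CO2, each by a small margin beyond the spread of the libraries. Exons of DNAJC9 share 28.6% of their bases with FAM149B1 and DNAJC9-AS1 on the opposite strand, and the strand setting of the counting is not given in the sources used here, so its counts may hold reads of these genes. The mitochondrial import protein DNAJC19 was also higher on average, at 0.22 ± 0.048 (SE, adjusted p = 0.000485, edgeR), as was the auxilin DNAJC6, at 0.37 ± 0.11 (SE, adjusted p = 0.00649, edgeR). In the annotation 9 pseudogenes carry the name of DNAJC19 and sum to at most 16.5 TPM in a library. DNAJC19 itself averaged 16.9 TPM (11.4 to 22.3), and how its reads divide from those of the pseudogenes was not tested.

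**Figure D4:**
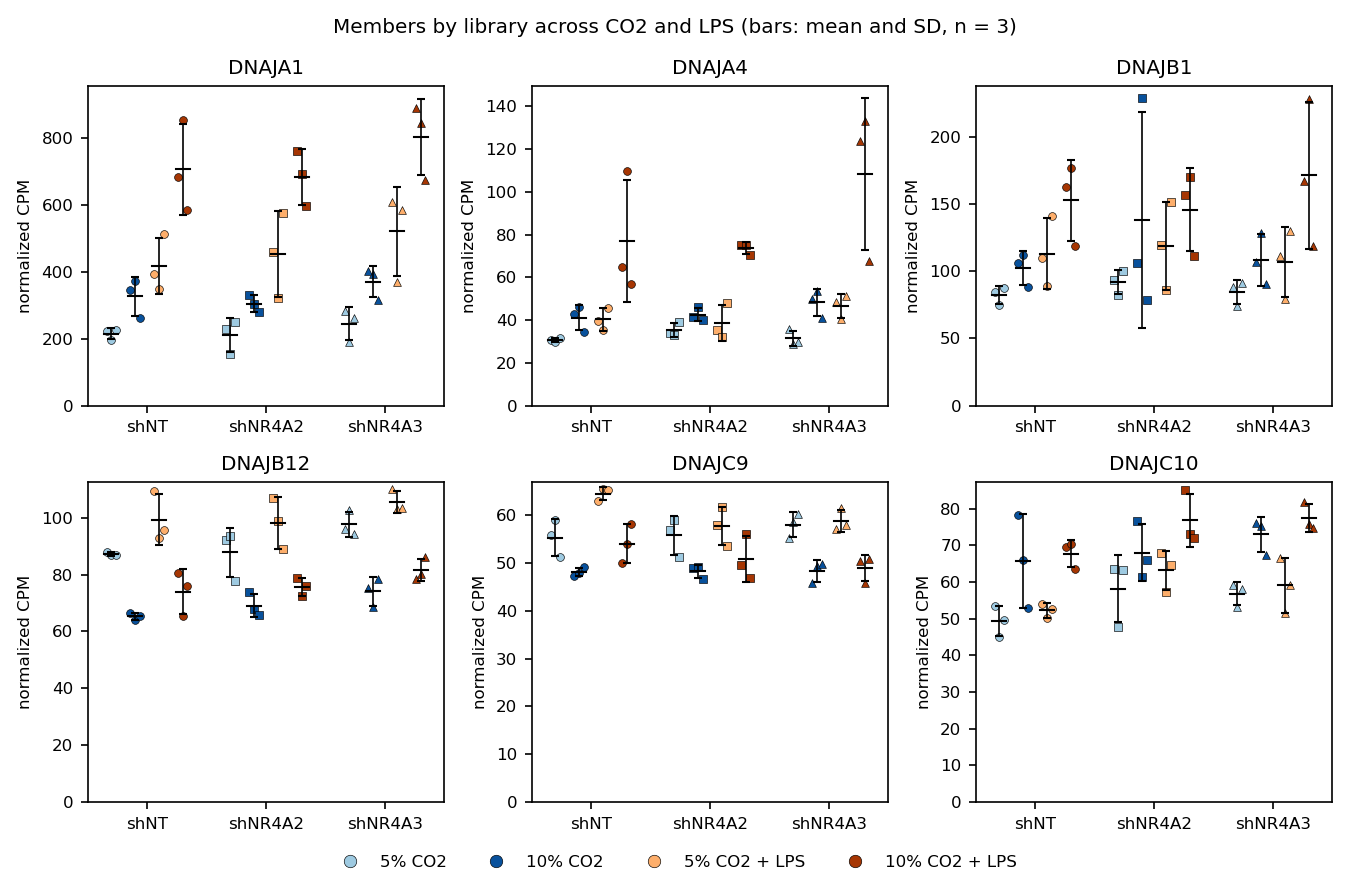
Normalized CPM (axis from 0) of DNAJA1, DNAJA4, DNAJB1, DNAJB12, DNAJC9 and DNAJC10 in each of the 36 libraries, at 5% and 10% CO2 for each line and state, with the mean and SD of 3 libraries as bars. The 10% CO2 points of DNAJA1 and DNAJA4 lie above, and those of DNAJB12 below, the 5% CO2 points in all 6 pairs.

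Whether depletion of NR4A2 or NR4A3 changed the CO2 response of a member was tested as an interaction in 12 libraries, and no member passed. For shNR4A2 against shNT cells edgeR called 0 members in the basal state (background 0%, 1 member at an unadjusted p under 0.05) and 0 with LPS (background 0%, 1 member). For shNR4A3 against shNT cells it called 0 in the basal state (background 0%, 0 at an unadjusted p under 0.05) and 0 with LPS (background 0%, 0). The LPS response at 5% CO2 gave 0 calls for shNR4A2 (background 0%, 1 member at an unadjusted p under 0.05) and 0 for shNR4A3 (background 0%, 1 member). DESeq2 also called 0 members in each of these. For DNAJA1 in LPS-stimulated cells the difference of the CO2 response from shNT was -0.15 ± 0.31 for shNR4A2 and -0.11 ± 0.32 for shNR4A3 on the log2 scale, and for DNAJB12 it was 0.063 ± 0.14 and 0.071 ± 0.12, so differences of the size of these errors could not be resolved.

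The CO2 response differed between LPS-stimulated and basal cells for DNAJB6 when the 3 lines were averaged, a test chosen after the values had been seen. Within single lines the CO2 by LPS interaction was called for 0 members by edgeR and by DESeq2, in shNT (background 0.0226%, 2 members at an unadjusted p under 0.05), shNR4A2 (background 0%, 2) and shNR4A3 cells (background 0%, 4). DNAJB6 in LPS-stimulated shNR4A2 cells read 183, 154 and 205 normalized CPM at 5% CO2 and 232, 221 and 209 at 10% CO2, and without LPS 116, 102 and 111 and 109.9, 103 and 106. In shNR4A3 cells the values were 218, 169 and 215 and 296, 280.2 and 239 with LPS and 127, 117 and 134 and 140.3, 129 and 124 without. In both lines, as in shNT, the libraries with LPS were apart by CO2 and those without LPS overlapped. The interaction was 0.40 ± 0.13 in shNT, 0.33 ± 0.15 in shNR4A2 and 0.37 ± 0.14 in shNR4A3 cells on the log2 scale. Averaged over the 3 lines it was 0.37 ± 0.084 (SE, adjusted p = 0.015, edgeR), kept in all 36 fits that left out 1 library, and DNAJB6 was the only member called, beside 1.99% of all genes. With LPS, DNAJB6 was lowest in replicate 2 at 5% CO2 and in replicate 3 at 10% CO2 in all 3 lines. The fit counted these libraries as independent, so the SE and p of averaged interactions may be too small. Leaving out 1 library cannot show this. DNAJA4 had the larger averaged interaction, at 0.59 ± 0.17 (SE, adjusted p = 0.0643, edgeR), which did not pass the test. The count of 1 became 2 without replicate 3 of shNT cells at 10% CO2 with LPS or replicate 3 of shNR4A3 cells at 10% CO2 with LPS and 3 without replicate 3 of shNR4A2 cells at 5% CO2 with LPS.

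The start regions of the members were searched for letters of the heat shock element, whose inverted repeats of nGAAn bind heat shock factors. RefSeq promoters (250 bases before to 50 after the start, GRCh38.p14) were found for 36 of the 38 members, with 48 promoters among 35116 in all. A pair of units, GAANNTTC or TTCNNGAA (each its own reverse complement, so that both strands are covered), was present in 8 member promoters (16.7%, against 13.5% of all promoters), those of DNAJA1, DNAJA4, DNAJB1, DNAJB4, DNAJB6, DNAJC6 and DNAJC15. The share with a pair thus lay near that of all promoters. A run of 3 units, GAANNTTCNNGAA or TTCNNGAANNTTC, which contains the pair, was present for DNAJA1 and DNAJB6 (4.17% of member promoters, against 0.490% of all). The 5 members of classes A and B among them are shown as the cytosolic HSP70 partners described here, each called higher in the averaged CO2 test, the averaged LPS test or both. DNAJC6 and DNAJC15, also called higher in the averaged CO2 test, are named only. Other members called higher in that test, among them DNAJA3, DNAJB2, DNAJB11, DNAJC2, DNAJC10 and DNAJC19, held no pair. Neither did DNAJB5, DNAJC3 and DNAJC8, which were higher in the averaged LPS test. DNAJB2 and DNAJB5 are cytosolic class B members, so not every such member called higher held a pair. The stretches lie at chr9:33025023-33025288 (+ strand) for DNAJA1, chr15:78264412-78264561 (+ strand) for DNAJA4, chr19:14518398-14518547 (- strand) for DNAJB1, chr1:78004789-78004938 (+ strand) for DNAJB4 and chr7:157336854-157337003 (+ strand) for DNAJB6, each read 5′ to 3′ on the gene's strand and ending at or just after its annotated start, with the matched units in capitals.
DNAJA1: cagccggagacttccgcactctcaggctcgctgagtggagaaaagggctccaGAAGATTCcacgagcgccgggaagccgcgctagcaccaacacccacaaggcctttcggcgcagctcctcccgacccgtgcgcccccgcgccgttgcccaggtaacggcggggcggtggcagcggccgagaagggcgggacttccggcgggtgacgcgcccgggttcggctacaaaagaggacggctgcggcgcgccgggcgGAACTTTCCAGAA
DNAJA4: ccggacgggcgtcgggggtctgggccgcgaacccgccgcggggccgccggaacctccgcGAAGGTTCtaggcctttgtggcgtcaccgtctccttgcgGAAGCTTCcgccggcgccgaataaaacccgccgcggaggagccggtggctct
DNAJB1: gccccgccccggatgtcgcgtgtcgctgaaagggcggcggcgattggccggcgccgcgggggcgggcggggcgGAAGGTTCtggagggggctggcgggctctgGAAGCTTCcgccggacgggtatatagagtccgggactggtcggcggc
DNAJB4: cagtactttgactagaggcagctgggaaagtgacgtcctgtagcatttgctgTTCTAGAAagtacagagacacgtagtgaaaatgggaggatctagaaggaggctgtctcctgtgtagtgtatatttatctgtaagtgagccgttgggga
DNAJB6: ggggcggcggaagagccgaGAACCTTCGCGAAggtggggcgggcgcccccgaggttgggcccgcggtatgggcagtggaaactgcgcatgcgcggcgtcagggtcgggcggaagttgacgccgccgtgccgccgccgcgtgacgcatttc
In DNAJA1 the run of 3 units lies 4 to 16 bases after the start, and in DNAJB6 131 to 119 bases before it. DNAJA4 and DNAJB1 hold separate pairs, and the single pair of DNAJB4 lies 98 to 91 bases before its start. A match of letters is a description and says nothing of whether a factor is bound there in these cells.

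More members were called between LPS-stimulated and basal cells than between CO2 levels, and in both directions. The cytosolic DNAJA1, DNAJB4 and DNAJB6 and the ER-lumen DNAJC3 rose in all 6 comparisons of LPS-stimulated with basal cells, and DNAJC5 fell in all 6. Of 37 members, 11 were called in shNT cells at 5% CO2 (background 22.9%) and 13 at 10% CO2 (background 31.2%). In shNR4A2 cells 8 were called at 5% CO2 (background 18.2%) and 15 at 10% CO2 (background 35%). In shNR4A3 cells the counts were 11 (background 25.3%) and 15 (background 42.1%). The share of members called thus lay near that of all genes throughout. The replicate numbers paired the libraries in all of these but shNT cells at 5% CO2. With the replicate as a block, the last count was 23, beside 52.2% of all genes. The other paired counts were also higher with the block. They were 15 in shNT cells at 10% CO2, 12 and 19 in shNR4A2 cells and 16 in shNR4A3 cells at 5% CO2. The share of all genes is not given for these. The count in shNT cells at 5% CO2 was 7 without LPS replicate 3. The count in shNR4A2 cells at 5% CO2 was 5 without basal replicate 1 or LPS replicate 3. Called in all 6 comparisons were 4 members on the higher side (10.8%, against 6.87% of all genes) and 1 on the lower (2.70%, against 6.09%). The test averaged over the 6 states, chosen after the values were seen, called 17 members higher and 10 lower (73.0%, beside 64.6% of all genes). All 9 class B members were among them, 7 higher and 2 lower. Class medians of the averaged log2 fold change were 0.32 for A, 0.25 for B and -0.033 for C, beside -0.011 for all genes.

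Among the cytosolic members, DNAJB4, a class B partner of HSPA8, rose by 1.35 ± 0.083 (SE, adjusted p = 5.2e-16, edgeR) on the log2 scale in the averaged test, and DNAJA1 by 1.09 ± 0.09 (SE, adjusted p = 1.83e-11, edgeR). In shNT cells at 5% CO2 DNAJB4 read 7.09, 6.46 and 8.56 normalized CPM without LPS and 15.4, 11.8 and 15.6 with it, a log2 fold change of 0.96 ± 0.16 (SE, adjusted p = 0.00023, edgeR). DNAJA1 read 222, 195 and 226 without and 393, 349.5 and 512 with LPS in these cells, a log2 fold change of 0.97 ± 0.13 (SE, adjusted p = 0.000186, edgeR). DNAJB6 went from 119.7, 109.9 and 109 to 167, 156 and 178 normalized CPM, a log2 fold change of 0.57 ± 0.084 (SE, adjusted p = 8.58e-05, edgeR). In each of the 3 the groups were apart, and each of their 6 calls was kept in all 6 fits that left out 1 library. Across the 6 comparisons the log2 fold changes ran from 0.96 to 1.55 for DNAJB4, 0.97 to 1.17 for DNAJA1 and 0.57 to 1.07 for DNAJB6. DNAJB1 read 84.3, 75.1 and 87.5 and 109, 88.7 and 141, and its log2 fold change of 0.47 ± 0.15 (SE, adjusted p = 0.0472, edgeR) was lost without basal replicate 1, 2 or 3 or LPS replicate 1 or 3, with adjusted p up to 0.161 (edgeR). It was called at 10% CO2 in shNT cells too, and neither call was made in 1 fit to all 36 libraries. DNAJB2, which passes clients to the proteasome, was lower on average, at -0.32 ± 0.045 (SE, adjusted p = 9.29e-08, edgeR).

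Of the ER members, DNAJC3 was singled out after its values were seen because it was called in all 6. It read 99.2, 80.8 and 93.5 normalized CPM without and 122, 114 and 119 with LPS in shNT cells at 5% CO2, a log2 fold change of 0.38 ± 0.09 (SE, adjusted p = 0.00484, edgeR). The 6 fold changes ran from 0.38 to 1.14 on the log2 scale, and each call was kept in all fits without 1 library. DNAJB11, an HSPA5 co-chaperone of the ER lumen, was called higher in 5 of the 6, at 0.33 to 0.55, and averaged 0.41 ± 0.043 (SE, adjusted p = 3.25e-10, edgeR). DNAJB14 and DNAJC18, both of the ER membrane, were lower on average, at -0.24 ± 0.058 (SE, adjusted p = 0.000423, edgeR) and -0.54 ± 0.078 (SE, adjusted p = 2.03e-07, edgeR). The ER members did not divide by place, since DNAJC1 and DNAJB12, also of the membrane, were higher, at 0.25 ± 0.03 (SE, adjusted p = 4.11e-09, edgeR) and 0.15 ± 0.035 (SE, adjusted p = 0.000257, edgeR). DNAJC18 read 11.8, 11.2 and 10.9 and 8.38, 9.24 and 7.61 normalized CPM in shNT cells at 5% CO2, a log2 fold change of -0.42 ± 0.14 (SE, adjusted p = 0.036, edgeR), and the call was lost without basal replicate 1, 2 or 3 or LPS replicate 1 or 3, with adjusted p up to 0.127 (edgeR).

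DNAJC5 was the member called lower with LPS in every comparison. In shNT cells at 5% CO2 it read 346, 319 and 295 normalized CPM without and 259, 232 and 206 with LPS, a log2 fold change of -0.45 ± 0.092 (SE, adjusted p = 0.00153, edgeR). Its fold changes ran from -0.80 to -0.45 on the log2 scale. The call in shNR4A2 cells at 5% CO2, at -0.46 ± 0.14, was lost without basal replicate 1 or 2 or LPS replicate 3, with adjusted p up to 0.183 (edgeR), and the other 5 were kept in every fit without 1 library. DNAJC28, the least abundant member tested, read 0.853, 1.04 and 1.20 without and 0.154, 0.308 and 0.195 with LPS, a log2 fold change of -2.19 ± 0.46 (SE, adjusted p = 0.00199, edgeR) that was kept in all 6 fits that left out 1 library. It rests on few reads. The splicing-linked DNAJC8 and DNAJC17 went apart: DNAJC8 averaged 0.38 ± 0.033 (SE, adjusted p = 3.7e-12, edgeR) and DNAJC17 averaged -0.45 ± 0.048 (SE, adjusted p = 2.53e-10, edgeR). Exons of DNAJC17 share 26.1% of their bases with genes on the opposite strand, GCHFR among them, whose part in the DNAJC17 counts was not tested. The endosomal DNAJC13 was lower on average, at -0.31 ± 0.05 (SE, adjusted p = 1.63e-06, edgeR), and the mitochondrial DNAJA3 at -0.19 ± 0.034 (SE, adjusted p = 5.82e-06, edgeR), against its rise with CO2.

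**Figure D5:**
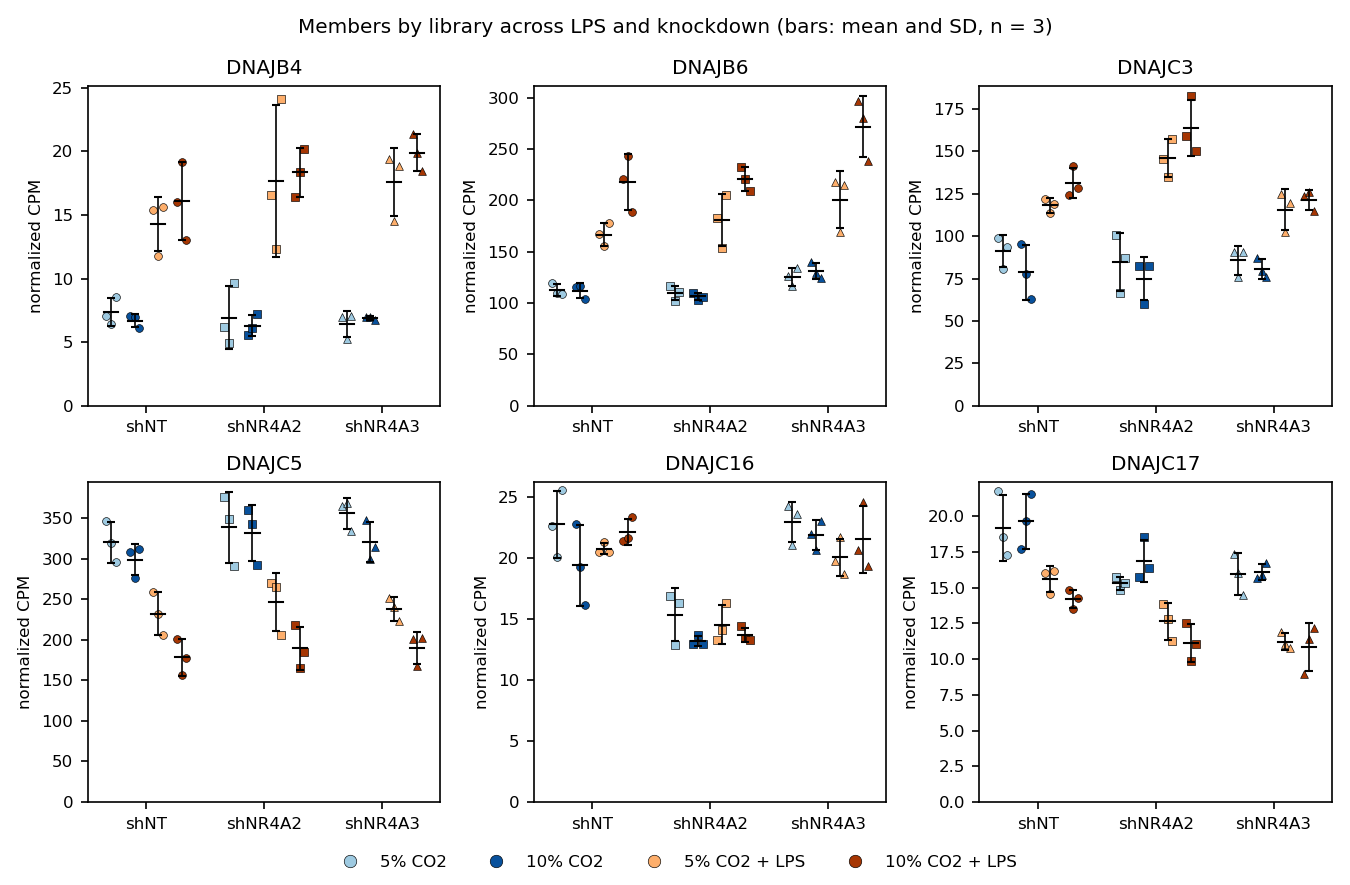
Normalized CPM (axis from 0) of DNAJB4, DNAJB6, DNAJC3, DNAJC5, DNAJC16 and DNAJC17 in each of the 36 libraries by line, CO2 and LPS, with the mean and SD of 3 libraries as bars. DNAJB4, DNAJB6 and DNAJC3 lie higher and DNAJC5 lower with LPS in all 6 pairs, and DNAJC16 lies lower in shNR4A2 than in shNT cells in all 4 conditions.

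Without the replicate block, from 0 to 6 members were called between the NR4A2- or NR4A3-depleted cells and shNT in single conditions, and DNAJC16 in shNR4A2 cells was the 1 member called in all 4. In shNR4A2 cells edgeR called 1 member at 5% CO2 (background 5.69%), 1 at 5% CO2 with LPS (background 6.21%), 1 at 10% CO2 (background 7.95%) and 6 at 10% CO2 with LPS (background 18.9%). In shNR4A3 cells the counts were 0 at 5% CO2 (background 6.19%, 4 members at an unadjusted p under 0.05, and 0 called by DESeq2), 1 with LPS (background 5.41%), 1 at 10% CO2 (background 6.85%) and 3 with LPS (background 14.5%). The replicate numbers paired the libraries in all of these except shNR4A2 at 10% CO2 without LPS. With the replicate as a block the shNR4A2 counts were 6 at 5% CO2 (background 21.5%), 9 with LPS (background 24.7%) and 17 at 10% CO2 with LPS (background 34.8%). For shNR4A3 the blocked counts were 4 at 5% CO2 (background 13%), 10 with LPS (background 18.7%), 3 at 10% CO2 (background 13.5%) and 12 with LPS (background 24.9%). With the block DNAJC7 was called higher in all 4 shNR4A3 comparisons, at 0.20 to 0.26 on the log2 scale, and in the 3 paired shNR4A2 comparisons. Without the block the counts changed with single libraries, and the share of all genes called in those fits is not given. Such changes therefore cannot be read as particular to the members. For shNR4A2 at 5% CO2 the count was 0 without replicate 1, 2 or 3 of shNT or replicate 1 or 3 of shNR4A2. For shNR4A2 at 5% CO2 with LPS it was 0 without replicate 1, 2 or 3 of shNT or replicate 1 of shNR4A2 and 5 without replicate 2 of shNR4A2. For shNR4A2 at 10% CO2 it was 0 without replicate 1 or 2 of shNT or replicate 1 or 3 of shNR4A2. For shNR4A2 at 10% CO2 with LPS it was 1 without replicate 3 of shNT or replicate 2 of shNR4A2, it was 2 without replicate 3 of shNR4A2, it was 3 without replicate 1 or 2 of shNT and 11 without replicate 1 of shNR4A2. For shNR4A3 at 5% CO2 it was 1 without replicate 2 of shNR4A3. For shNR4A3 at 5% CO2 with LPS it was 0 without replicate 1, 2 or 3 of shNT or replicate 1 or 3 of shNR4A3 and 2 without replicate 2 of shNR4A3. For shNR4A3 at 10% CO2 it was 0 without replicate 2 or 3 of shNT or replicate 1, 2 or 3 of shNR4A3 and 5 without replicate 1 of shNT. For shNR4A3 at 10% CO2 with LPS it was 0 without replicate 3 of shNT or replicate 2 of shNR4A3 and 1 without replicate 3 of shNR4A3.

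DNAJC16, an ER-membrane member, was lower in shNR4A2 than in shNT cells in all 4 conditions. At 5% CO2 DNAJC16 read 22.6, 20.1 and 25.6 normalized CPM in shNT, 16.9, 12.8 and 16.3 in shNR4A2 and 24.3, 21.1 and 23.6 in shNR4A3 cells. At 5% CO2 with LPS DNAJC16 read 20.5, 21.3 and 20.5 normalized CPM in shNT, 13.3, 14.1 and 16.3 in shNR4A2 and 19.8, 21.7 and 18.7 in shNR4A3 cells. In both of these conditions all 3 shNR4A2 libraries lay below every shNT library. At 10% CO2 DNAJC16 read 22.8, 19.2 and 16.2 normalized CPM in shNT, 13.0, 13.7 and 13.0 in shNR4A2 and 22.0, 20.7 and 23.1 in shNR4A3 cells. At 10% CO2 with LPS DNAJC16 read 21.4, 21.6 and 23.3 normalized CPM in shNT, 14.4, 13.5 and 13.3 in shNR4A2 and 20.7, 24.6 and 19.3 in shNR4A3 cells. The shNR4A2 libraries lay below shNT in these conditions too, and the shNR4A3 libraries overlapped with shNT in all 4. The log2 fold changes for shNR4A2 were -0.56 ± 0.14, -0.51 ± 0.12, -0.56 ± 0.14 and -0.70 ± 0.10 in the same order, with adjusted p of 0.0395, 0.0348, 0.018 and 0.000411 (edgeR). DNAJC16 was the only member called lower in all 4, where 1.17% of all genes were. At 10% CO2 with LPS the call was kept in all 6 fits that left out 1 library. At 5% CO2 it was lost without replicate 1, 2 or 3 of shNT or replicate 1, 2 or 3 of shNR4A2, with adjusted p up to 0.168 (edgeR). At 5% CO2 with LPS it was lost without replicate 1, 2 or 3 of shNT or replicate 1 or 2 of shNR4A2, with adjusted p up to 0.142 (edgeR). At 10% CO2 it was lost without replicate 1 or 2 of shNT or replicate 1 or 3 of shNR4A2, with adjusted p up to 0.091 (edgeR). Averaged over the 4 conditions, a test chosen after the values were seen, the difference was -0.58 ± 0.059 (SE, adjusted p = 9.35e-10, edgeR), kept in all 36 fits that left out 1 library. For shNR4A3 it was 0.024 ± 0.058 (SE, adjusted p = 0.795, edgeR), and the difference between the depleted lines was not tested.

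The averaged test called 17 members for shNR4A2 (45.9%, beside 40.9% of all genes), 6 higher and 11 lower, and 14 for shNR4A3 (37.8%, beside 32.9%), 7 higher and 7 lower. Both contrasts use the same shNT libraries, so their values are given side by side and not as 2 separate observations. For DNAJC7, a tetratricopeptide co-chaperone of HSP70 and HSP90, the averages were 0.20 ± 0.037 (SE, adjusted p = 4.81e-05, edgeR) and 0.22 ± 0.037 (SE, adjusted p = 1.46e-05, edgeR). For DNAJC18 they were -0.43 ± 0.095 (SE, adjusted p = 0.000401, edgeR) and -0.44 ± 0.10 (SE, adjusted p = 0.000488, edgeR). For DNAJC17 they were -0.30 ± 0.058 (SE, adjusted p = 7.33e-05, edgeR) and -0.35 ± 0.058 (SE, adjusted p = 1.16e-05, edgeR). DNAJC7 was thus the higher in both depleted lines and DNAJC17 and DNAJC18 the lower, and these members were picked after their values were seen. DNAJC19, of the mitochondrial import motor, averaged -0.19 ± 0.059 (SE, adjusted p = 0.00755, edgeR) and -0.29 ± 0.059 (SE, adjusted p = 0.0002, edgeR), and DNAJC24, which acts in diphthamide synthesis, -0.25 ± 0.087 (SE, adjusted p = 0.02, edgeR) and -0.31 ± 0.087 (SE, adjusted p = 0.00655, edgeR). DNAJC6 was at -0.08 ± 0.13 (SE, adjusted p = 0.651, edgeR) for shNR4A2 and -0.48 ± 0.13 (SE, adjusted p = 0.00448, edgeR) for shNR4A3, and DNAJB6 at 0.0057 ± 0.051 (SE, adjusted p = 0.945, edgeR) and 0.24 ± 0.051 (SE, adjusted p = 0.000336, edgeR). Whether these differences differ between the depleted lines was not tested.

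The genes that J-domain proteins work with were read from lists written with earlier results of these data known. In the averaged CO2 test 12 of 14 heat shock factor targets outside the J-domain set were higher and 0 lower, with a median log2 fold change of 0.56, where 17% of all genes were higher and the median was -0.0042. Of 14 HSP70 and HSP110 partners tested, 7 were higher and 1 lower, with a median of 0.12. HSPH1, the cytosolic HSP110, was at 1.09 ± 0.13 (SE, adjusted p = 7.03e-07, edgeR), the inducible HSPA1A at 0.85 ± 0.16 (SE, adjusted p = 0.000172, edgeR) and the constitutive HSPA8 at 0.62 ± 0.10 (SE, adjusted p = 1.76e-05, edgeR). HSPA5, the HSP70 of the ER lumen that DNAJC10, DNAJC3 and DNAJB11 serve, was slightly lower, at -0.12 ± 0.032 (SE, adjusted p = 0.00362, edgeR). Of 15 genes of the ER unfolded protein response 3 were higher and 4 lower, SDF2L1 among the higher at 0.15 ± 0.04 (SE, adjusted p = 0.00455, edgeR). HERPUD1, at -0.15 ± 0.067 (SE, adjusted p = 0.0778, edgeR), did not pass. Among 9 HSP70 exchange factors 4 were higher and 1 lower, and of 7 further J-domain genes tested 0 were higher and 4 lower. In the averaged LPS test, where 30.5% of all genes were higher and 34.1% lower, 13 of 14 heat shock factor targets were higher and 0 lower, and the corresponding counts were 12 and 1 for the HSP70 and HSP110 partners, 9 and 4 for the unfolded protein response, 4 and 1 for the exchange factors and 2 and 4 for the further J-domain genes.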

How the data were processed

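RNA from 36 THP-1 libraries was sequenced, 3 for each of 12 conditions. Per the submitters' processing notes and the study's methods, the authors used Trimmomatic 0.36 for trimming and STAR 2.5.2b for alignment to GRCh38, and counted unique hits per gene with featureCounts of Subread 1.5.2. The deposited values are raw counts per gene, 1 file per library. The annotation release and the strand setting are not given in the sources used here, so reads of overlapping antisense genes cannot be told apart, and pseudogene copies may take reads of their parent gene.

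Groups were taken from the sample labels. A further marker of other cell types is not reported here. Counts were tested with edgeR 4.0.16 in R 4.3.3 (limma 3.58.1 underneath): genes were kept by filterByExpr with a minimum count of 10 and a minimum total of 15 over all 36 libraries, libraries were scaled by TMM, and quasi-likelihood F tests (two-sided, robust) were run on the libraries of the conditions compared, with Benjamini-Hochberg adjustment over the 17720 genes kept. Standard errors (SE) of log2 fold changes were derived from the F statistic, as the absolute log2 fold change over its square root. The study's methods name DESeq2, used here (version 1.42.0) as an alternative. TPM values used the deposited gene lengths. Other alternatives were RLE size factors, no filter on low counts, a block for the replicate number, all 36 libraries in a single fit and each library left out. The tests averaged over conditions were added after the values had been seen. Neither the averaged CO2 test nor the averaged CO2 by LPS test allowed for same-numbered libraries of 1 CO2 level that deviated together. The fits were tested on simulated data with known changes. Tables and plots were made with Python 3.11.15, pandas 2.3.3, numpy 2.4.6 and matplotlib 3.10.9.

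The labels give the same replicate numbers in every condition, and the sources used here do not say what a number shares. Numbers were taken to pair libraries where every correlation of same-numbered deviations from the group means was over 0.1. This held for basal shNR4A2 cells in the CO2 comparisons, for all LPS comparisons but shNT cells at 5% CO2 and for all knockdown comparisons but shNR4A2 cells at 10% CO2 without LPS.

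The members and the other gene lists were chosen with earlier results of these data known. Values per library were given for members called in a CO2 comparison, for up to 4 members in each direction with the largest called LPS response in shNT cells at 5% CO2, and for members called in the same direction in all 4 conditions of a knockdown. Members outside this rule are named as picked after their values were seen. DNAJA2 and DNAJB1 were described in the CO2 comparisons, and DNAJA3, DNAJC1, DNAJC3, DNAJC6, DNAJC7, DNAJC8, DNAJC9, DNAJC13, DNAJC17, DNAJC18, DNAJC19, DNAJC24, DNAJB2, DNAJB9, DNAJB11 and DNAJB14 in the averaged tests, on that basis. The same holds for DNAJB12 in the averaged LPS test.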

Additional observations from a re-analysis of the deposited data

Results flagged for a closer look

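DNAJB6 stood out because its CO2 response differed between LPS-stimulated and basal cells. Averaged over the 3 lines, the CO2 by LPS interaction was 0.37 ± 0.084 on the log2 scale (SE, adjusted p = 0.015, edgeR), in a test chosen after the values had been seen. Same-numbered libraries tended to deviate together across lines, which the test did not allow for, so its SE and p may be too small. The interaction was positive in 3 of 3 lines, at 0.40 in shNT, 0.33 in shNR4A2 and 0.37 in shNR4A3 cells, and was not called within any single line. Groups of 3 libraries were too small for a test of single outlying libraries.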

How the results depend on the processing

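With few libraries per condition, counts of members called within 1 pair of conditions were small and moved with the settings, while no member called in a comparison changed sign there under any alternative tried. Uncalled values near 0 were not followed for sign. Counts under alternative fits, here and above, come without the share of all genes called in the same fit, except where a background is printed. How far such a count moved with all genes therefore cannot be read from it. RLE size factors left each count of members within 1.5 times its reported value. With no filter on low counts, the CO2 counts were 5 in basal and 9 in LPS-stimulated shNT cells, 1 and 4 in shNR4A2 cells and 5 and 4 in shNR4A3 cells, the shNR4A3 knockdown count at 10% CO2 with LPS was 6, and the CO2 by LPS count averaged over the lines was 2. With DESeq2 the CO2 counts were 4 in basal shNT cells, 3 in LPS-stimulated shNR4A2 and 6 in LPS-stimulated shNR4A3 cells, the knockdown counts were 2 for shNR4A2 at 5% CO2 both without and with LPS and 0 for shNR4A3 at 10% CO2, and the averaged CO2 by LPS count was 2. In 1 fit to all 36 libraries the CO2 counts were 2 and 10 in shNT cells, 3 in LPS-stimulated shNR4A2 cells and 1 and 4 in shNR4A3 cells, and the knockdown counts were 3 for shNR4A2 at 5% CO2 with LPS, 1 for shNR4A3 at 5% CO2 and 6 for shNR4A3 at 10% CO2 with LPS. With the replicate block, where the numbers paired the libraries, the counts were 1 for CO2 in basal shNR4A2 cells, 23 for LPS in shNR4A3 cells at 10% CO2, 6, 9 and 17 for the shNR4A2 knockdown at 5% CO2, at 5% CO2 with LPS and at 10% CO2 with LPS, and 4, 10, 3 and 12 for the shNR4A3 knockdown at 5% CO2, 5% CO2 with LPS, 10% CO2 and 10% CO2 with LPS. The other paired LPS counts were 15 in shNT cells at 10% CO2, 12 and 19 in shNR4A2 cells at 5% and 10% CO2, and 16 in shNR4A3 cells at 5% CO2. Where the libraries share only a number, the replicate block gave 2 for CO2 in LPS-stimulated shNR4A2 and in LPS-stimulated shNR4A3 cells, 18 for LPS in shNT cells at 5% CO2, 3 for the shNR4A2 knockdown at 10% CO2 and 2 for the averaged CO2 by LPS interaction, with lowest same-number correlations from -0.398 to 0.084 in the pairs of conditions. The block ended no call reported in the text. With each library left out in turn, the CO2 counts ran from 0 to 4 and 1 to 8 in basal and LPS-stimulated shNT cells, stayed at 0 and ran from 0 to 4 in shNR4A2 cells, and ran from 0 to 4 and 0 to 1 in shNR4A3 cells. At 5% and 10% CO2 the LPS counts ran from 7 to 12 and 12 to 13 in shNT, 5 to 8 and 13 to 16 in shNR4A2 and 9 to 14 and 13 to 14 in shNR4A3 cells. The knockdown counts, in the order 5% CO2, 5% CO2 with LPS, 10% CO2 and 10% CO2 with LPS, ran from 0 to 1, 0 to 5, 0 to 1 and 1 to 11 for shNR4A2 and from 0 to 1, 0 to 2, 0 to 5 and 0 to 3 for shNR4A3. The interactions in 12 libraries stayed at 0, and the averaged counts ran from 16 to 18 for CO2, 1 to 3 for CO2 by LPS, 26 to 29 for LPS and 15 to 18 and 13 to 15 for the shNR4A2 and shNR4A3 knockdowns. Of the calls remade without 1 library, 24 of 66 held for CO2, 25 of 84 for the knockdowns, 372 of 438 for LPS and 2712 of 2736 for the averaged tests. With no filter on low counts 7 of 73 LPS calls and 11 of 76 averaged calls were lost, with DESeq2 4 of 73 LPS and 3 of 14 knockdown calls, in 1 fit to all libraries 3 of 11 CO2, 5 of 73 LPS and 4 of 14 knockdown calls, and with RLE size factors 1 of 76 averaged calls. The causes of these changes were not tested, beyond the smaller number of libraries in the fits that left 1 out. DNAJC12 was too low to be tested at this depth.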
